A study of Mus musculus with 6 samples.

Results

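Nitric oxide synthesis and the use of its substrate arginine were followed through 10 genes in mouse kidney tubule cells that had received HNF3α. They were picked by gene name from the 29595 genes of the table: the synthases Nos1, Nos2 and Nos3, the cofactor enzyme Gch1, the arginine-making enzymes Ass1 and Asl, the arginases Arg1 and Arg2, the arginine carrier Slc7a2 and the inhibitor-clearing enzyme Ddah1. All 10 passed the filter on low counts. The list was drawn up with this comparison already known, and Nos2 was among its strongly lowered genes. Differences of these 10 genes are therefore given as a description, with a standard error (SE) and a 95% interval but no p-value.

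TKPTS is a line of mouse renal proximal tubule cells. The cells were transfected with pcDNA3.1-Flag, the Flag vector with no insert (3 libraries, labelled WT, the pcDNA group), or with pcDNA3.1-Hnf3a-Flag, which carries Flag-tagged HNF3α (3 libraries, labelled as overexpressing it, the Hnf3a group), and both groups were harvested after 24 h. HNF3α is a forkhead transcription factor whose mouse gene is Foxa1, and the purpose of the comparison was to find genes that respond to it. Values per library are always given in the order of replicates 1, 2 and 3. No inflammatory stimulus is given in the labels of either group. Whether the replicates were separate cultures is not stated, so p-values measure the spread between these libraries only.

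The libraries held between 60473818 and 71154667 estimated counts. These are not numbers of fragments, since in low genes 12 counts stand for about 3 fragments. Foxa1 lay between 9.49 and 9.96 FPKM (fragments scaled to transcript length and library size) in the pcDNA libraries and between 284.2 and 334.2 FPKM in the Hnf3a libraries, which fits the labels. The renal epithelial markers Pax8, Cdh16, Krt8, Krt18, Epcam and Cdh1 were above 12 counts, the detection floor used here, in every library. Of 9 proximal tubule markers analysed, 6 or 7 passed this floor per library, and the defining glucose carrier Slc5a2 had at most 3 counts anywhere. Fibroblast and macrophage markers were uneven. Col1a1 reached 2694 and 3099 counts in Hnf3a replicates 2 and 3 but 33 in Hnf3a replicate 1 and at most 16 in the pcDNA libraries.

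Nitric oxide is a short-lived gas that cells make from arginine. Nos1 and Nos3 are the neuronal and endothelial synthases and respond to calcium, whereas Nos2 is the inducible one, which is switched on by cytokines and microbial products through NF-κB and interferon signals. All 3 enzymes need tetrahydrobiopterin, and Gch1 catalyses the first step in making it. Ass1 and Asl rebuild arginine from citrulline, the other product of the synthases, and arginases take arginine toward ornithine and urea. In the kidney the proximal tubule is a main site where arginine is made, and Nos2 appears in tubule cells during inflammation.

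**Figure D1:**
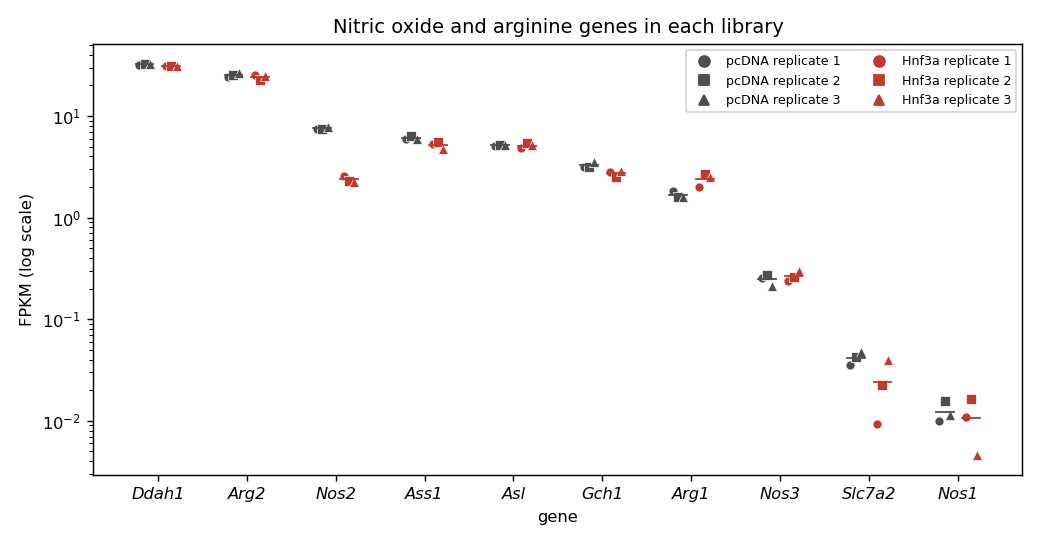
FPKM on a log axis of the 10 genes in each of the 6 libraries, with genes ordered by their pcDNA mean. Marker shape gives the replicate, colour the group, and short lines the group means. Nos2 was at 7.51 to 7.86 FPKM in the pcDNA libraries and 2.25 to 2.60 FPKM in the Hnf3a libraries, while Ddah1, Arg2 and Asl lay at about the same level in both groups.

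Nos2 was the main synthase transcript of these cells, and it was about 3-fold lower in the Hnf3a group. Nos2 (ENSMUSG00000020826; GRCm38 chromosome 11, 78920787 to 78960254, plus strand, 27 exons in its longest coding transcript) had estimated counts of 838, 802 and 735 with Hnf3a. In the pcDNA libraries they were 2253, 2455 and 2543. Per length this was 2.60, 2.28 and 2.25 FPKM against 7.51, 7.53 and 7.86 FPKM. Every Hnf3a library was below every pcDNA library by a wide gap, and each group was tight. The group means were 2.38 ± 0.192 FPKM (SD, n = 3) and 7.63 ± 0.194 FPKM (SD, n = 3). The log2 fold change (Hnf3a over pcDNA) was -1.69 with an SE of 0.068 and a 95% interval from -1.84 to -1.54. This leaves 30.9% of the pcDNA level. No annotated gene overlaps Nos2. Since these are bulk cultures, fewer cells that transcribe a gene and less RNA per cell cannot be told apart.

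By the size of its change Nos2 stood near the end of the table. Its absolute log2 fold change was larger than that of 99.01% of the 17824 tested genes. It ranked 12 by fold among the 379 genes that were lower at an adjusted p under 0.05. Since Nos2 was listed with its fall known, this place is a description and supports nothing further. In the 17 alternative analyses its log2 fold change ran from -1.76 to -1.36. These are refits of the libraries in which the gene was picked, so they describe how the value moves with the processing and support nothing further. The smallest size came from limma on log2(FPKM + 1), a scale that understates changes of low genes. With Hnf3a replicate 1 alone, the library with the fewest fibroblast and macrophage transcripts in its group, it was -1.56.

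The constitutive synthases were scarce. Nos3 (ENSMUSG00000028978; chromosome 5, 24364810 to 24384474) held 72, 87 and 92 estimated counts with Hnf3a against 72, 83 and 65 with pcDNA. The groups overlapped, at 0.266 ± 0.0304 FPKM (SD, n = 3) in Hnf3a and 0.246 ± 0.0315 FPKM (SD, n = 3) in pcDNA. The log2 fold change was 0.10 with a 95% interval from -0.40 to 0.61, which holds both no change and a rise of about 1.5-fold. Nos3 overlaps Atg9b on the opposite strand, and the strand setting of the counting is not given in the sources used here.

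Nos1 (ENSMUSG00000029361; chromosome 5, 117781032 to 117954364) held 9, 15 and 4 estimated counts with Hnf3a against 8, 13 and 10 with pcDNA. Of the 6 libraries, 4 were at or under the floor, where 12 counts stand for about 3 fragments, so its level is close to not detected. Its log2 fold change of -0.24 had a 95% interval from -1.68 to 1.21. Nos2 thus held 96.3% to 97.2% of the summed FPKM of the 3 synthases in the pcDNA libraries and 88.1% to 91.3% in the Hnf3a libraries. The sum was 7.77 to 8.08 FPKM in pcDNA and 2.55 to 2.84 FPKM in Hnf3a. Endothelial and neuronal markers, the cells in which Nos3 and Nos1 are best known, were low. The endothelial markers Tie1, Emcn and Erg and the neuronal marker Rbfox3 were at or under the floor in every library. The endothelial cadherin Cdh5 was above it throughout and fell, with 107, 119 and 118 counts with Hnf3a against 202, 279 and 284 with pcDNA (log2 fold change -1.23, edgeR adjusted p 0.000821). Tek, an endothelial receptor, rose from 0 counts in each pcDNA library to 11, 15 and 16 with Hnf3a (edgeR adjusted p 0.0194), all near the floor. The neuronal markers Snap25, Syp and Stmn2 were above the floor in every library, and Syt1 in all but 1. The 7 endothelial markers summed to 2.55 to 2.88 CPM (counts scaled to the library total) in Hnf3a and 3.77 to 4.97 CPM in pcDNA. The 5 neuronal markers summed to 1.20 to 4.06 CPM and 1.70 to 2.16 CPM. Their part in the Nos3 and Nos1 values was not tested.

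Gch1, the rate-limiting enzyme of tetrahydrobiopterin synthesis, was slightly lower without passing the threshold. Gch1 (ENSMUSG00000037580; chromosome 14, 47153895 to 47189413, minus strand, 6 exons) was at 2.82, 2.50 and 2.85 FPKM in the Hnf3a libraries and at 3.12, 3.14 and 3.56 FPKM in the pcDNA libraries. The highest Hnf3a library was below the lowest pcDNA library. The log2 fold change was -0.28 with an SE of 0.076 and a 95% interval from -0.44 to -0.11, or 82.5% of the pcDNA level. It passed an adjusted p of 0.05 in the DESeq2 Wald test and with counts divided by 4, and in none of the other 15 alternatives. The annotated genes Gm18811 and Gm49134 overlap Gch1. In the pcDNA libraries Gch1 had 0.416 to 0.454 times the FPKM of Nos2, and in the Hnf3a libraries 1.09 to 1.26 times.

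Of the enzymes that rebuild arginine, Ass1 was slightly lower and Asl differed by less than the spread. Ass1 (ENSMUSG00000076441; chromosome 2, 31470207 to 31520672) was at 5.32, 5.55 and 4.75 FPKM in the Hnf3a libraries against 5.88, 6.31 and 5.95 FPKM in the pcDNA libraries. Its groups did not overlap, and the log2 fold change was -0.22 with an SE of 0.080 and a 95% interval from -0.40 to -0.052. It was past the threshold in no alternative. Asl (ENSMUSG00000025533; chromosome 5, 130011258 to 130025019) was at 4.82, 5.43 and 5.13 FPKM in the Hnf3a libraries and 5.09, 5.22 and 5.14 FPKM in the pcDNA libraries. The Hnf3a libraries spread around the pcDNA ones. Its log2 fold change was -0.014 with a 95% interval from -0.14 to 0.11.

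Of the arginases, which draw on the same arginine pool, Arg1 was higher without passing the threshold and Arg2 differed by less than the spread. Arg1 (ENSMUSG00000019987; chromosome 10, 24915221 to 24927484), the cytosolic liver-type enzyme, held 325, 474 and 411 estimated counts with Hnf3a against 279, 261 and 263 with pcDNA. In FPKM this was 2.00, 2.68 and 2.50 against 1.84, 1.58 and 1.60. All Hnf3a libraries were above all pcDNA libraries, but Hnf3a replicate 1 only narrowly so. The log2 fold change was 0.50 with an SE of 0.14 and a 95% interval from 0.20 to 0.80, and it did not pass the threshold. With Hnf3a replicate 1 alone it was 0.25, and without that library it was 0.61 and past the threshold. These are refits of the same libraries and support nothing further.

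Arg1 is also a gene of alternatively activated macrophages, so macrophage markers are given beside it. Of 14 such markers, the Hnf3a libraries had 2, 13 and 13 over the floor and each pcDNA library had 4. Their summed level was 28.1, 37.3 and 41.5 CPM in the Hnf3a libraries and 26.1 to 29.6 CPM in the pcDNA libraries, most of it from Cd68 and Csf1r. Of the 14, 5 were at 0 counts in Hnf3a replicate 1, 0 in Hnf3a replicates 2 and 3, and 6, 4 and 6 in the pcDNA libraries. C1qa, C1qb and Tyrobp were at 0 in Hnf3a replicate 1 and in pcDNA replicates 1 and 3. Others were not absent from pcDNA. Lyz2 held 0, 265 and 273 counts with Hnf3a and 16, 44 and 6 with pcDNA. Mrc1 held 11, 57 and 28 against 16, 3 and 13. The 5 hepatocyte markers, from the other cell type known for Arg1, summed to 11.9 to 15.6 CPM in Hnf3a and 14.7 to 28.0 CPM in pcDNA. The part of these markers in the Arg1 values was not tested. Nos2, another macrophage gene, was at 2.60, 2.28 and 2.25 FPKM in the Hnf3a libraries, and the part of these markers in its values was not tested either.

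**Figure D2:**
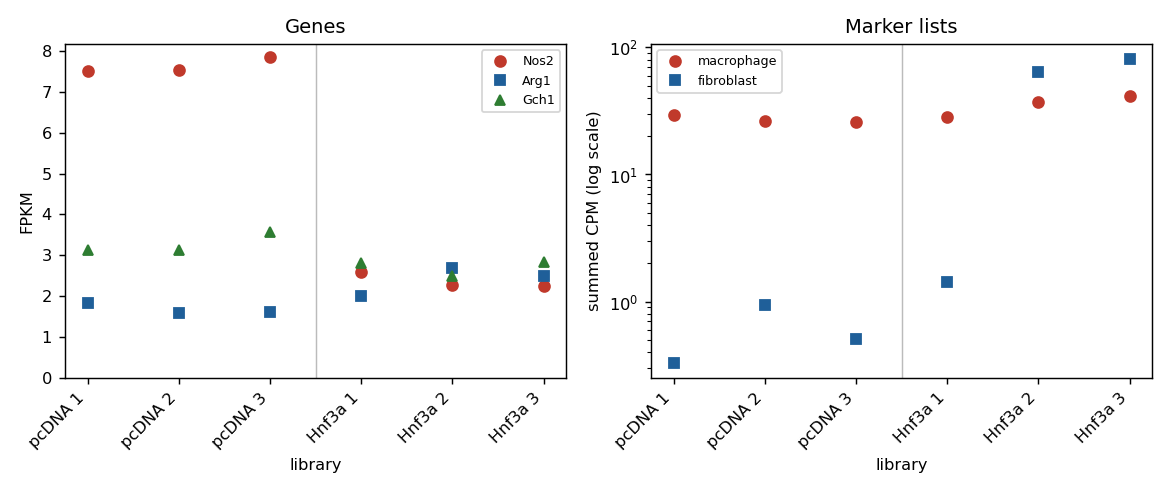
Left, FPKM of Nos2, Arg1 and Gch1 in each library on an axis from 0. Right, summed CPM of 14 macrophage and 6 fibroblast markers on a log axis. Arg1 was highest in Hnf3a replicates 2 and 3, the libraries with the most marker transcripts, at 63.9 and 80.8 CPM of fibroblast markers against 1.43 CPM in Hnf3a replicate 1.

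Arg2 (ENSMUSG00000021125; chromosome 12, 79130777 to 79156301), the mitochondrial arginase of kidney, was far more abundant than Arg1. It was at 25.1, 22.4 and 25.0 FPKM in the Hnf3a libraries and at 24.1, 25.5 and 26.2 FPKM in the pcDNA libraries. The groups overlapped. Its log2 fold change was -0.072 with an SE of 0.058 and a 95% interval from -0.20 to 0.053. Vti1b and Gm48780 overlap it on the opposite strand. The FPKM of Arg2 was 13.1 to 16.4 times that of Arg1 in the pcDNA libraries and 8.37 to 12.6 times in the Hnf3a libraries.

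Within a library the balance between the inducible synthase and Arg1 was different in the groups. The FPKM of Nos2 was 4.08, 4.76 and 4.90 times that of Arg1 in the pcDNA libraries. In the Hnf3a libraries it was 1.30, 0.852 and 0.901 times that of Arg1. Against Arg2, Nos2 was at 0.296 to 0.312 in pcDNA and 0.0900 to 0.103 in Hnf3a. These ratios restate the values above and carry no separate test.

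Slc7a2, the arginine carrier that is induced together with Nos2 in macrophages, was barely transcribed in these cells. Slc7a2 (ENSMUSG00000031596; chromosome 8, 40862396 to 40922308) held 7, 17 and 27 estimated counts with Hnf3a against 22, 29 and 32 with pcDNA. One Hnf3a library was under the floor, and the groups overlapped. The log2 fold change of -0.78 had an SE of 0.51 and a 95% interval from -1.89 to 0.33. Leaving out Hnf3a replicate 1 gave -0.42, leaving out Hnf3a replicate 3 gave -1.31, and Hnf3a replicate 1 alone gave -1.99. Ddah1 (ENSMUSG00000028194; chromosome 3, 145758675 to 145894277), which breaks down the methylarginines that block the synthases, was the most abundant of the 10 genes. It was at 31.4, 31.1 and 31.2 FPKM in the Hnf3a libraries and at 31.8, 32.7 and 32.8 FPKM in the pcDNA libraries. Its groups did not overlap, yet the log2 fold change was only -0.065 with a 95% interval from -0.13 to 0.0039.

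**Figure D3:**
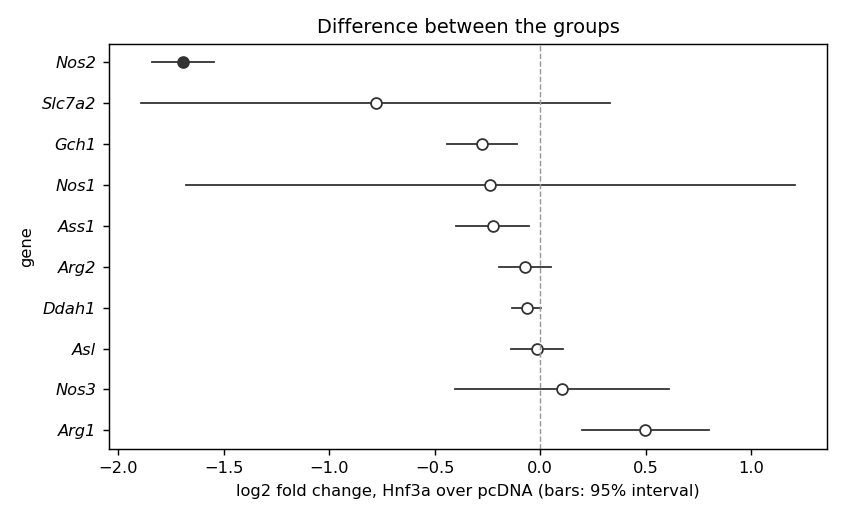
Log2 fold change (Hnf3a over pcDNA) of the 10 genes with 95% intervals from the edgeR fit, n = 3 against 3. The filled point, Nos2 at -1.69, passed an adjusted p of 0.05, and the open points did not. The intervals of Nos1 and Slc7a2 are widest, since both had few counts.

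In the fit across all genes 1 of the 10 genes, Nos2, was called at an adjusted p under 0.05, where 3.17% of all tested genes were. The DESeq2 Wald test called 3 of the 10 (4.6% of all genes) and limma on log2(FPKM + 0.1) called 1 (1.32% of all genes). The groups did not overlap for 5 of the 10, Nos2, Gch1, Ass1, Arg1 and Ddah1, and for 19.1% of all tested genes. The median log2 fold change was -0.15 over the 10 genes and 0.00085 over all tested genes. As the list was made with this comparison known, nothing is read from these counts.

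The order of levels shows how far Nos2 moved among its pathway. In the pcDNA group the FPKM means ran from Ddah1 (32.5) and Arg2 (25.3) through Nos2 (7.63), Ass1 (6.05), Asl (5.15), Gch1 (3.28) and Arg1 (1.68) to Nos3 (0.246), Slc7a2 (0.0415) and Nos1 (0.0123). No neighbours in this order had overlapping ranges. In the Hnf3a group Nos2 stood at place 7, after Ass1 (5.21), Asl (5.13), Gch1 (2.72) and Arg1 (2.39). There the ranges of Ass1 and Asl overlapped, as did those of Gch1 and Arg1, of Arg1 and Nos2, and of Slc7a2 and Nos1. Between pcDNA libraries the coefficient of variation was 1.20% for Asl, 1.68% for Ddah1 and 2.55% for Nos2, and 24.1% for the near-absent Nos1.

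The genes whose pattern was most like that of Nos2 were found by Pearson's r of log2 CPM over the 6 libraries, among 11596 other tested genes with a mean of at least 200 counts. They were Trappc13 (r = 0.9993), Slc31a2 (0.9984), Nfkbiz (0.9975), Smap2 (0.9975), Cxcl5 (0.9970) and Neurl3 (0.9968). The 2 groups set most of such an r, and the points share their libraries, so these values describe the profile only. The log2 fold changes of the 6 genes lay between -1.06 (Cxcl5, a neutrophil chemokine) and -0.18 (Trappc13, a vesicle-tethering subunit). None of the 6 changed as much as Nos2.

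The rest of the pathway was taken from 6 lists of 92 genes, of which 80 were tested. Of these 80 genes, 10 were lower and 0 were higher in the Hnf3a group at an adjusted p under 0.05 (edgeR), and 7 of the 10 belong to the list of signals that induce Nos2. Over all tested genes 2.13% were lower and 1.04% higher. The lists had been chosen with the fall of inflammatory genes in these libraries known. The counts and adjusted p-values of their genes below therefore describe these libraries and support nothing further. Ranges over the alternatives come from refits of the same libraries and show only how a value moves with the processing.

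**Figure D4:**
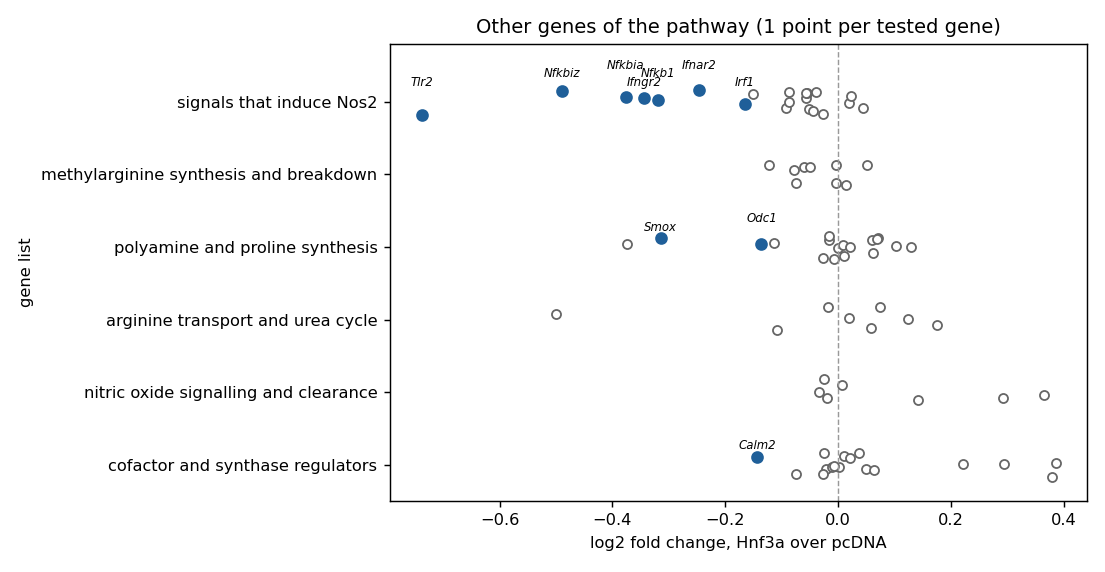
Log2 fold change (Hnf3a over pcDNA) of each tested gene in 6 pathway lists, with genes past an adjusted p of 0.05 filled and named. Vertical scatter within a list has no meaning. The filled points all lie left of 0, from Tlr2 at -0.74 to Odc1 at -0.14.

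The list of signals that induce Nos2 holds receptors, transcription factors and the NF-κB inhibitor Nfkbia, and was chosen with the fall of inflammatory genes known. In it 7 of 21 tested genes were lower and 0 higher (edgeR), against 2.13% and 1.04% of all tested genes. The median log2 fold change was -0.087 against 0.00085 over all genes. The DESeq2 Wald test called 8 (4.6% of all genes) and limma on log2(FPKM + 0.1) called 5 (1.32% of all genes). Tlr2, a receptor for bacterial lipoproteins, fell most. It was at 13.5, 14.6 and 13.6 FPKM in the Hnf3a libraries and at 24.4, 22.8 and 21.9 FPKM in the pcDNA libraries. The groups were far apart, with a log2 fold change of -0.74, an SE of 0.049 and an edgeR adjusted p of 1.24e-06 (1.18e-37 to 0.0015 over the alternatives). The other Toll-like receptors of the list, Tlr3 and Tlr4, had log2 fold changes of -0.058 and 0.023 and did not pass.

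Within the NF-κB group, Nfkbiz (IκBζ, a nuclear cofactor of NF-κB), Nfkbia (IκBα, its inhibitor) and Nfkb1 (the p105/p50 subunit) fell. Nfkbiz was at 22.5 ± 0.101 FPKM (SD, n = 3) in Hnf3a and 31.4 ± 0.104 FPKM (SD, n = 3) in pcDNA. Its log2 fold change was -0.49 with an SE of 0.031 and an edgeR adjusted p of 7.64e-07 (2.66e-44 to 0.000292 over the alternatives). Nfkbia, the most abundant gene of the list, was at 65.6 ± 2.81 FPKM against 84.7 ± 1.34 FPKM (SD, n = 3 each), a log2 fold change of -0.38. Nfkb1 was at 20.2 ± 1.01 FPKM against 25.0 ± 0.318 FPKM (SD, n = 3 each), a log2 fold change of -0.32. The edgeR adjusted p was 4.15e-05 for Nfkbia (up to 0.0059 over the alternatives) and 0.000183 for Nfkb1 (up to 0.0187). Rela, the p65 subunit, had a log2 fold change of -0.027 (SE 0.052) and did not pass.

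On the interferon side, the receptor chains Ifngr2 and Ifnar2 and the transcription factor Irf1 fell. Their log2 fold changes were -0.34 (SE 0.049) for Ifngr2, -0.25 (SE 0.050) for Ifnar2 and -0.16 (SE 0.034) for Irf1. Their edgeR adjusted p values were 0.00115, 0.0143 and 0.0161. Ifngr2 passed in all 17 alternatives and Ifnar2 and Irf1 in 10 of 17 each, with adjusted p up to 0.0899 and 0.11. The partner chains Ifngr1 and Ifnar1 had log2 fold changes of -0.052 and -0.15, and neither passed.

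Promoters from RefSeq (build GRCm38.p6, 250 bases before to 50 bases after a gene's start) were read for Nos1, Gch1, Ass1 and Ddah1 and for 7 of the 10 lowered pathway genes. Promoters of Nos2, Nos3, Asl, Arg1, Arg2, Slc7a2, Nfkbiz, Nfkb1 and Calm2 were not analysed here. The letters GGGANNNTC, a κB-like motif, were searched on both strands and occur in 14.5% of all 32851 promoters. They were found once each in Gch1 and Tlr2, as a pair of overlapping matches on opposite strands in Ifngr2, and at 2 places in Nfkbia. The GAS-like letters TTCNNNGAA, which read the same on both strands, occur in 8.3% of all promoters and were found in Ifnar2 and in 1 of the 2 promoters listed for Irf1. The ISRE-like letters GAAANNGAA occur in 8.56% and were found in Nfkbia only. The forkhead letters TGTTTAC and TGTTTGC, present in 3.65% and 5.07% of all promoters, were found in none of these windows. In the lines below the matched bases are in capitals within 10 bases on either side, printed 5′ to 3′ on the gene's strand. Gch1 is shown as the one of the 10 genes with a match, and the others as lowered genes of the signals that induce Nos2. Not printed are the Ifngr2 pair, 76 bases before the start, and the ISRE-like match of Nfkbia, 53 bases before it. A match is a description of letters, not a shown binding site.
Gch1, chr14:47189370-47189398, minus strand: tagactccgaGAGTGTCCCtaggtgctga
Tlr2, chr3:83841621-83841649, minus strand: gctggcgaccGGGAAGTTCggggccctga
Nfkbia, chr12:55492742-55492770, minus strand: gctcatcgcaGGGAGTTTCtccgatgaac
Nfkbia, chr12:55492657-55492685, minus strand: gactggcttgGAAATTCCCcgcgcctgac
Irf1, chr11:53769914-53769942, plus strand: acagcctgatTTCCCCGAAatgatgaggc
Ifnar2, chr16:91372559-91372587, plus strand: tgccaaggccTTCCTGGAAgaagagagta

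The Gch1 match begins 25 bases after the gene's start, and the printed Nfkbia matches begin 113 and 28 bases before it. The Tlr2 match begins 31 bases before the start, that of Irf1 90 bases and that of Ifnar2 214 bases before it.

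Of 17 tested cofactor and synthase regulators, 1 was lower and 0 higher, against 2.13% and 1.04% of all tested genes. The median log2 fold change of the list was 0.011. The lower gene was Calm2, a calmodulin gene, whose protein activates the synthases. It was at 199 ± 1.45 FPKM against 218 ± 7.20 FPKM (SD, n = 3 each). It fell by 0.14 on the log2 scale (edgeR adjusted p 0.0242, 0.00075 to 0.159 over the alternatives) and passed in 9 of 17 of them. Calm3, which encodes the same protein, had a log2 fold change of 0.064 and did not pass. Cav1, which binds and restrains Nos3, missed the threshold (log2 fold change 0.22, edgeR adjusted p 0.0532) and passed in 5 of 17 alternatives. Pts, Spr and Qdpr, enzymes of tetrahydrobiopterin synthesis and recycling, had log2 fold changes from -0.074 (Spr) to 0.037 (Qdpr), none past the threshold. Gchfr, the feedback regulator of Gch1, had one of 0.29 with a 95% interval from -0.31 to 0.89. The most abundant gene of the list was Hsp90ab1, a chaperone of the synthases, with a log2 fold change of -0.026.

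Polyamine synthesis lies downstream of the arginases, since ornithine is its starting point. Of 18 tested genes for polyamine and proline synthesis, 2 were lower and 0 higher, against 2.13% and 1.04% of all tested genes. The median log2 fold change of the list was 0.0040. Smox, which oxidises spermine, was at 58.2, 58.4 and 59.1 FPKM in the Hnf3a libraries and at 73.0, 70.9 and 73.4 FPKM in the pcDNA libraries. The groups were well separated, with a log2 fold change of -0.31, an SE of 0.029 and an edgeR adjusted p of 2.87e-05 (3.21e-22 to 0.00218 over the alternatives). Odc1, the rate-limiting enzyme that turns ornithine into putrescine, was at 285 ± 7.52 FPKM against 312 ± 12.1 FPKM (SD, n = 3 each). It fell by 0.14 on the log2 scale (edgeR adjusted p 0.0345, 0.00253 to 0.234 over the alternatives) and passed in 9 of 17 of them. Oat and Aldh18a1, which link ornithine and proline, had log2 fold changes of 0.062 and 0.071 and did not pass.

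In the remaining lists no gene passed. Among 8 tested genes for arginine transport and the urea cycle, edgeR, the DESeq2 Wald test and limma on log2(FPKM + 0.1) each called 0. Of all tested genes these tools called 3.17%, 4.6% and 1.32%. Of the arginine carriers these cells did express, Slc7a1 was at 19.4 ± 0.201 FPKM in Hnf3a and 19.6 ± 0.426 FPKM in pcDNA (SD, n = 3 each). Its log2 fold change of -0.018 had a 95% interval from -0.083 to 0.048. Slc7a6, another such carrier, was at 14.5 ± 0.494 FPKM and 14.3 ± 0.444 FPKM (SD, n = 3 each), a log2 fold change of 0.019. Slc3a2, the most abundant gene of this list and the shared heavy chain of amino acid carriers, had a log2 fold change of 0.058. Cps1, the first enzyme of the urea cycle, and Nags, also of this list, had at most 15 and 8 counts in any library and were not tested.

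Among 9 tested genes for making and breaking down methylarginines, edgeR, the DESeq2 Wald test and limma each called 0. Of all tested genes they called 3.17%, 4.6% and 1.32%. The most abundant was Prmt1, the main arginine methyltransferase, with a log2 fold change of -0.060. Ddah2, the other enzyme that clears methylarginines, differed by -0.078 on the log2 scale, with a 95% interval from -0.24 to 0.080. Among 7 tested genes for nitric oxide signalling and clearance, the 3 tools again called 0. The receptor of nitric oxide, soluble guanylate cyclase, was near absent. Its subunit genes Gucy1a1, Gucy1a2, Gucy1b1 and Gucy1b2 had at most 12, 19, 19 and 24 counts in any library and did not pass the filter. Gucy1b1 held 3, 14 and 19 counts with Hnf3a and 0 in each pcDNA library, and it was called in 1 alternative, without Hnf3a replicate 1. Akr1a1, the most abundant gene of the list, had a log2 fold change of -0.034.

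The pathway annotation in the table gave a further count, which shares Nos2, Odc1 and Smox with the genes above. Over all tested genes, as given above, 2.13% were lower and 1.04% higher. Of 16 tested genes annotated to arginine biosynthesis, 1 was lower, Nos2, and 1 was higher, Glul, which makes glutamine (log2 fold change 0.32, edgeR adjusted p 0.0281). Of 42 tested genes annotated to arginine and proline metabolism, 4 were lower, Nos2, Odc1, Smox and P4ha2, and 1 was higher, Ckb. The log2 fold changes were -0.23 for P4ha2, a collagen prolyl hydroxylase (edgeR adjusted p 0.0149), and 0.42 for Ckb, a creatine kinase (edgeR adjusted p 0.0036). Of the 10 genes followed here, 7 carry the first annotation and 5 the second.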

How the data were processed

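Poly(A) RNA of TKPTS cells was sequenced in 6 libraries, 3 per group. Per the labels, groups and replicate numbers come from the sample titles, the build is mm10 (GRCm38), and the submitters' processing notes list cutadapt 1.9, HISAT2 2.0.4, UMI-tools, StringTie 1.3.4d, DESeq2 and edgeR without roles. The authors deposited an estimated count, given as whole numbers, and an FPKM value per gene and library. How strand was counted is not given in the sources used here. More genes sat at exactly 4 counts (1148 to 1203 per library) than at 3 or 5, so 12 counts, about 3 fragments, was taken as the detection floor, 0.169 to 0.198 CPM. Floors and intervals cover counting or replicate error of these libraries only. GENCODE vM21 listed 29514 of the genes, 26766 with the same start and end.

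Genes were filtered with filterByExpr, scaled by TMM and tested two-sided with edgeR 4.0.16 (glmQLFTest after a robust glmQLFit, R 4.3.3). The estimated counts entered this fit as deposited, without scaling to fragments. The 17824 p-values received the Benjamini-Hochberg adjustment, and 0.05 was the threshold. A standard error is the size of the log2 fold change over the root of its F statistic, and 95% intervals use the t quantile of the fit. With 3 against 3 libraries, an exact permutation test of 1 gene cannot go below p = 0.1, so no such test was run. Overlap of groups was read from CPM, counts scaled to the library total.

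The 10 genes, the pathway and marker lists and the tests were chosen with earlier results of these data known. Genes named are the 10, every pathway gene past the threshold, the most abundant gene of each list, the 6 most like Nos2, and, chosen after their values were seen, partners of these and the annotated genes Glul, Ckb and P4ha2. Pycr3 was matched as Pycrl through RefSeq synonyms. Otc, Slc34a1 and Slc22a6 were not analysed here. Some genes of these lists enter the counts but are not reported here by name. Alternatives were other filters and scalings, DESeq2 1.42.0, limma 3.58.1 on log2(FPKM + pseudocount), counts divided by 4, the replicate block, leaving out each library, and, added after the data were seen, Hnf3a replicate 1 alone. On simulated data of 17824 genes, of which 200 were changed by 1 on the log2 scale, edgeR recovered 138 with 12 false calls. The simulated counts were negative binomial draws in steps of 4, with dispersions estimated from the deposited counts. The false calls hold for that setting and are not a measured error rate of these libraries.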

Additional observations from a re-analysis of the deposited data

How the results depend on the processing

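The number of the 10 genes called was 1 as reported, 2 with at least 1 FPKM in at least 3 libraries (with Arg1), 2 with counts divided by 4 (with Gch1) and 3 in the DESeq2 Wald test (with both), and it ran from 1 to 2 when 1 library was left out, the 2 without Hnf3a replicate 1 (with Arg1). Over all genes 565 were called, 236, 231 and 245 by limma with pseudocounts of 0.1, 1 and 0.01 FPKM, 263 to 643 when 1 library was left out (263 without Hnf3a replicate 2, 286, 267 and 349 without pcDNA replicates 1, 2 and 3), and 322 with Hnf3a replicate 1 alone, a fit in which the spread comes from the pcDNA libraries. The split was 67.1% lower as reported, and 75.8%, 77.1% and 73.5% in those limma fits, but 59.9% under total-count scaling, 60.1% in the DESeq2 Wald test and 60.7% without Hnf3a replicate 1. In the list of cofactor and synthase regulators the count of 1 became 2 with all genes of at least 1 count, with at least 1 FPKM, under total-count scaling, in the DESeq2 Wald test and with counts divided by 4 (with Cav1 each time). It became 0 in each limma fit, with the replicate block and with Hnf3a replicate 1 alone, and was 0 to 1 when 1 library was left out (0 without Hnf3a replicate 2, pcDNA replicate 1 or pcDNA replicate 2). For polyamine and proline synthesis the count of 2 became 1 in each limma fit and with Hnf3a replicate 1 alone, and was 1 to 2 when 1 library was left out (1, Smox, without Hnf3a replicates 2 or 3 or pcDNA replicates 1 or 2). For nitric oxide signalling it was 0 to 1 (Gucy1b1 without Hnf3a replicate 1). For the signals that induce Nos2 it was 5 to 8 over the alternatives (8 in the DESeq2 Wald test, with Ifnar1), with Tlr2, Ifngr2, Nfkb1, Nfkbia and Nfkbiz called each time. Fewer genes or libraries enter some of these fits, and otherwise the cause was not tested.

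Among single genes the direction turned for Nos1 without Hnf3a replicate 3 (0.11, lowest -0.69 when 1 library was left out), for Asl without Hnf3a replicate 1 (0.025, lowest -0.054) and for Nos3 with Hnf3a replicate 1 alone (-0.055), each far inside its interval. The labels do not say whether the replicate numbers pair the libraries. The correlation of same-numbered deviations from the group means was -0.041, -0.010 and 0.010. Low-count genes weigh as much as others in it, so it cannot settle whether the libraries were paired. With the replicate block 463 genes were called, and of the 10 lowered list genes Calm2 alone lost its call. The block changed no other call of the 10 genes or the lists. Depth limits Nos1, Slc7a2 and the guanylate cyclase subunits, whose counts are at or near the floor.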
